A study of Mus musculus with 71 samples.

Results

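The 10 genes described here are antagonists of Wnt signalling: Sfrp1, Sfrp2, Sfrp5, Frzb, Wif1, Dkk1, Dkk2, Dkk3, Notum and Nkd1. They were taken from all 9 peak tables used, as the peaks annotated to 1 of these names and lying at most 10 kb from its transcription start. The tables annotate peaks within that distance to 13005 genes, of which these are 10. A Wnt protein binds a Frizzled receptor and the co-receptors LRP5 or LRP6 and stabilises beta-catenin, which then acts with TCF and LEF factors on target genes. Antagonists hold this signal back at each step: secreted Frizzled-related proteins and WIF1 bind the Wnt ligand, Dickkopf proteins bind the co-receptors, NOTUM removes the lipid from Wnt, and NKD1 acts on Dishevelled inside the cell. In embryonic stem cells (ESC) Wnt signalling favours self-renewal, and many of its regulators are known as Polycomb targets. Polycomb repressive complex 1 (PRC1) holds CBX7, which reads histone methylation through a chromodomain, and RING1B, which ubiquitinates H2A; H3K27me3 is the mark that PRC2 makes and CBX7 can bind.

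The cells were mouse J1 ESC, grown on feeder fibroblasts. They carried wild-type CBX7 (WT), CBX7-CaPS or CBX7-mCaPS, where CaPS is, from the title, a Polycomb domain of committed cells put into PRC1; the sources used here do not expand either name or say whether a line is 1 clone. Stages were ESC (0 days), neural progenitor cells (NPC) at day 6 and day 8, and embryoid bodies (EB) at day 10. ESC had ChIP of CBX7 and RING1B (WT and CaPS, experiments 1 to 3) and of H3K27me3 (experiments 1 and 5), and CUT&RUN, a cleavage assay on native chromatin, of RING1B (WT, CaPS, mCaPS) and H3K27me3 (WT, CaPS), 1 column per genotype. A RING1B time course held WT and CaPS at ESC, day 6 and day 8 (experiments 3 and 5). A further RING1B table held day-8 WT and CaPS (experiments 3 and 4), and 1 column per genotype each stood for day-8 H3K27me3 ChIP and day-10 EB RING1B CUT&RUN.

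Each value is the number of sequenced tags in a peak, scaled to 10 M tags per library. Library totals ran from 2.01 to 49.13 M tags, and 1.96% to 19.3% of tags lay in the peaks. A count of 0 allows up to 3 tags, which is 0.611 to 14.9 tags per 10 M over the libraries. Experiment 2 gave the highest share of tags in peaks for CBX7 in both genotypes and for RING1B in WT, and members are compared within experiments. The experiment 3 ESC and day-8 RING1B libraries of the time course are samples that also appear in the ESC and day-8 tables, so these tables are not independent. A lower value in every cell and in a share of the cells cannot be told apart in such bulk libraries. Peaks of markers say where Polycomb sits, not which cells are present: for ESC RING1B, 4 of 9 pluripotency genes and 7 of 8 neural progenitor genes had a peak, against 7 of 8 feeder fibroblast genes.

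All 10 genes had a peak in the time course, in ESC RING1B CUT&RUN and in day-8 H3K27me3 ChIP. The ESC CBX7 and RING1B ChIP tables, which share their intervals, held 12 peaks at 9 genes and none at Dkk3. ESC H3K27me3 ChIP held 8 peaks at 7 genes, with none at Dkk3, Sfrp2 or Wif1. Where a gene had several peaks, the one with the highest mean stands for it. In the ESC CBX7 and RING1B ChIP tables its annotated distance from the start was 101 bases (Sfrp2) to 1096 bases (Notum). For H3K27me3 it could lie farther off, as at Sfrp2 at day 8 (-2540 bases).

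Promoter sequences were taken from RefSeq (GRCm38.p6), which held 7 of the 10 genes in the table used. The 250 bases before the start are shown for 3 genes: Frzb, where RING1B fell most in the WT time course, Dkk2, among the largest falls of CBX7, and Wif1, the only member whose RING1B rose in the CaPS time course. Frzb lies at chr2:80447397-80447646 on the minus strand, Dkk2 at chr3:132085042-132085291 on the plus strand and Wif1 at chr10:121033754-121034003 on the plus strand. Each is written 5′ to 3′ on the gene's strand, and capitals mark CG dinucleotides.
Frzb: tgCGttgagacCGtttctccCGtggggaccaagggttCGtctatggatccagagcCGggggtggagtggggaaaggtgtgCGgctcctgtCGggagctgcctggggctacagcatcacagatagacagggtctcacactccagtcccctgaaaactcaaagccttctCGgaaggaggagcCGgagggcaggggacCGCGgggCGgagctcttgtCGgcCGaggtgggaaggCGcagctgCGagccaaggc
Dkk2: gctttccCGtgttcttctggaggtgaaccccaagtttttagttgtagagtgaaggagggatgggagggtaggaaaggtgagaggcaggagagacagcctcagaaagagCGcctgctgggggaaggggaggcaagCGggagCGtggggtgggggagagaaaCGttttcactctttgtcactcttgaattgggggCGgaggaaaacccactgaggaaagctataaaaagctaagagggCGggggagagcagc
Wif1: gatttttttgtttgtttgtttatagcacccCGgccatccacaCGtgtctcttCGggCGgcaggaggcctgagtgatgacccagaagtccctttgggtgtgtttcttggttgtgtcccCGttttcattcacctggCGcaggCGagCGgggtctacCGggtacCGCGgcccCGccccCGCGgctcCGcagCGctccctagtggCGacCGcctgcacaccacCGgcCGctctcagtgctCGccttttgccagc
Frzb held 16 CG dinucleotides, Dkk2 7 and Wif1 21, against a median of 6 over all 32851 promoters. At least as many as in Frzb were present in 25.4% of promoters, as many as in Dkk2 in 46.3% and as many as in Wif1 in 16.3%. A Frzb peak covered the whole window in 5 of the 9 tables. At Dkk2 this was so in 8 of 9 tables and at Wif1 in 2 of 8.

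Per kilobase of peak, CBX7 in WT ESC was highest at Frzb, with 87.5 ± 69.4 tags per 10 M (SD, n = 3). Sfrp1 (52.5), Sfrp5 (50.3), Nkd1 (42.7), Dkk2 (39.5), Notum (35.4), Sfrp2 (31.8) and Dkk1 (27.3) followed, with SDs of 15.4 to 26. These SDs include differences between experiments that the genes share, and differences between genes were not tested. Wif1 was lowest, at 13.9 ± 7.02 (SD, n = 3). RING1B per kilobase in the same cells also put Frzb first, at 104 ± 78.0 (SD, n = 3), and Notum last, at 35.9 ± 16.1 (SD, n = 3). Wif1 lay just above Notum, at 36.7 ± 39.3 (SD, n = 3). The WT libraries ran from 12.0 to 82.1 tags per 10 M in the Wif1 peak and from 27.9 to 58.2 in the Notum peak.

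Most of these genes carried less CBX7 in CaPS ESC. The signal fell at the strongest peak of 8 of the 9 genes with a peak, by 1.59-fold (Dkk1) to 3.11-fold (Nkd1), and the difference at Wif1 did not pass the test. Lower CBX7 was general: 44.3% of all 6326 peaks were called lower and 0.0632% higher (limma, adjusted p under 0.05). The median change was -1.16 (log2) over the 9 genes and -0.88 over the strongest peaks of all 5384 genes, of which 48% were lower.

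Among the ligand-binding antagonists, Frzb, a secreted Frizzled-related protein first found in cartilage, gave 192, 697 and 203 tags per 10 M of CBX7 in WT experiments 1, 2 and 3. In CaPS the same experiments gave 68.7, 198 and 96.3 tags per 10 M. Every CaPS library was below the WT library of its experiment, while the ranges of the genotypes overlapped. The change was -1.45 (log2, SE 0.27, limma adjusted p = 2.01e-06). Sfrp1, a soluble Wnt-binding protein, changed by -1.16 (log2, SE 0.27, limma adjusted p = 0.000129), Sfrp2 by -1.23 (SE 0.29) and Sfrp5 by -1.16 (SE 0.28). Wif1, Wnt inhibitory factor 1, had little CBX7 in any library: 9.52, 22 and 10.2 tags per 10 M in WT and 1.49, 15.2 and 9.77 in CaPS. Its change of -0.88 (log2, SE 0.44) had a limma adjusted p of 0.0946.

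Dkk2, a ligand of the LRP co-receptors, gave 75.4, 222 and 84.6 tags per 10 M of CBX7 in WT and 31.4, 38.0 and 38.2 in CaPS. All 3 CaPS libraries lay below all 3 WT libraries, as was so at 2 of the 9 genes. The share of all peaks without such overlap was not counted, here or below. The Dkk2 change was -1.63 (log2, SE 0.28, limma adjusted p = 4.91e-07). Dkk1, the Dickkopf protein best known for head formation, changed least among the genes that passed, by -0.67 (log2, SE 0.28, limma adjusted p = 0.0396), and its groups overlapped at 64.0 to 169 in WT and 44.8 to 91.3 tags per 10 M in CaPS. Notum, the Wnt-delipidating enzyme, changed by -0.84 (log2, SE 0.34, limma adjusted p = 0.0308). In experiment 3 its WT and CaPS libraries gave 12.2 tags per 10 M each.

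Nkd1, the intracellular antagonist and itself a Wnt target gene, gave 79.6, 197 and 75.5 tags per 10 M of CBX7 in WT and 19.9, 68.4 and 26.97 in CaPS. No CaPS library reached the lowest WT library. The change was -1.64 (log2, SE 0.28, limma adjusted p = 5.11e-07). The weaker second peaks of Dkk1, Notum and Sfrp2 gave -0.21, -0.46 and -1.27, and none passed.

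**Figure D1:**
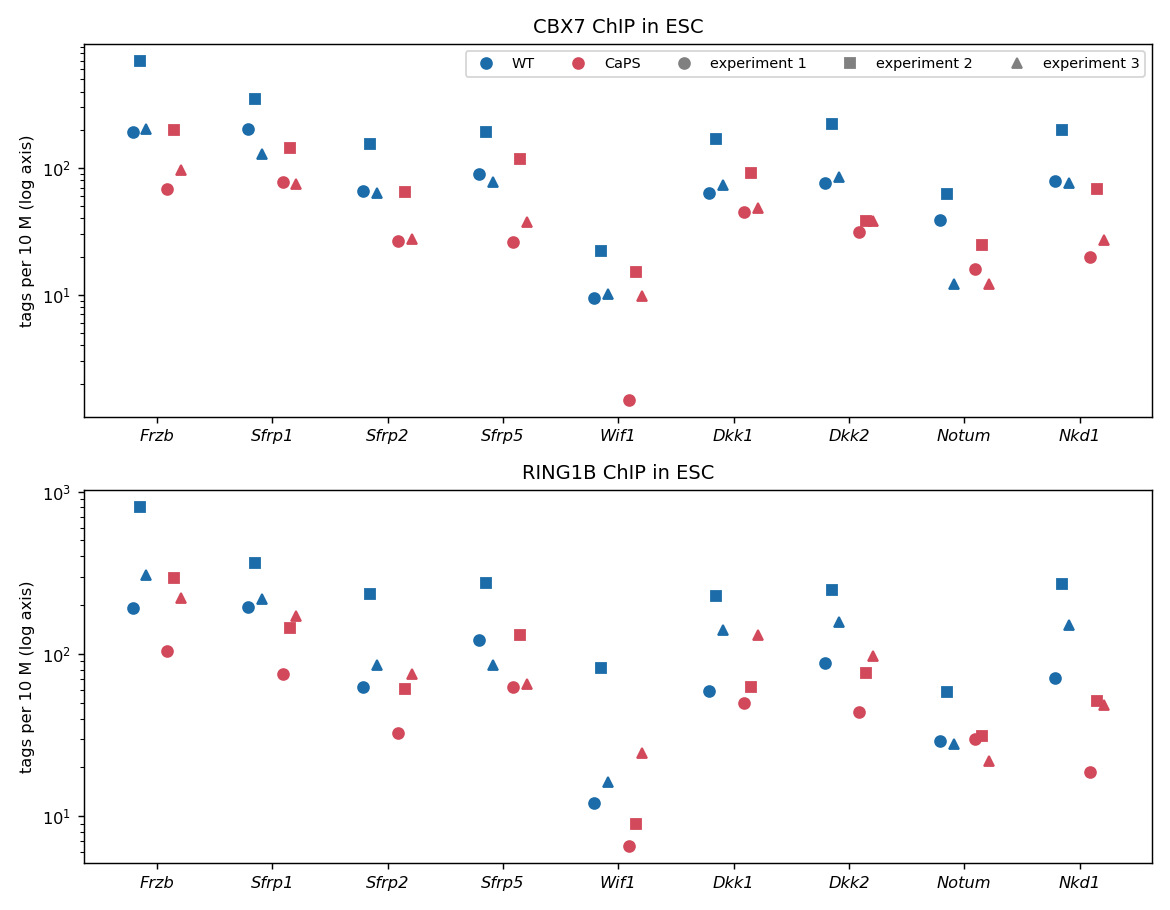
Tags per 10 M (log axis) at the strongest peak of 9 genes in ESC, for CBX7 ChIP (top) and RING1B ChIP (bottom). Each point is 1 library, blue for WT and red for CaPS, with a symbol per experiment; CBX7 at Nkd1 lies between 75.5 and 197 in WT and between 19.9 and 68.4 in CaPS.

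These calls rest on the deposited scaling, on comparing within experiments and on the fit used. Without the mean-variance trend in limma no member passed, and edgeR with TMM and DESeq2 each called fewer member peaks. With each library scaled to the same sum over its peaks, the median of all peaks moved from -0.85 to 0.12, no member passed, and the strongest peaks ran from -0.61 (Nkd1) to 0.37 (Dkk1), with Dkk1 and Notum above 0; without the experiment as a block, 2 of 6326 peaks and no member passed. Leaving out 1 experiment left 5 to 8 member peaks called: without experiment 1 Dkk1 (-0.75), Notum (-0.64) and Sfrp5 (-0.86) did not pass, and without experiment 2 Dkk1 (-0.56) and Notum (-0.62) did not.

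RING1B values in ESC were also lower in CaPS at each of the 9 strongest peaks (with the same sum over peaks Dkk1 and Notum lay above 0), and Nkd1 was the 1 that passed. Nkd1 gave 71.2, 271 and 150.2 tags per 10 M in WT and 18.7, 51.7 and 48.2 in CaPS, with every CaPS library below every WT library. Its change was -1.95 (log2, SE 0.46, limma adjusted p = 0.0242), a 3.87-fold fall. Only 0.142% of the 6326 peaks were called lower and 0% higher, and 1174 peaks had an unadjusted p under 0.05. Sfrp1 likewise had no overlap, at 193 to 364 tags per 10 M in WT and 75.0 to 171 in CaPS, with a change of -1.01 (log2, SE 0.40, limma adjusted p = 0.176). The other genes gave -0.39 (Notum) to -1.12 (Dkk2, limma adjusted p = 0.166), against a median of -0.67 over all peaks.

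The experiments differed in size. Over all peaks the median difference between CaPS and WT was -0.53 in experiment 1, -1.42 in experiment 2 and 0 in experiment 3. At Nkd1 the difference was -1.87, -2.37 and -1.62, and at Frzb -0.88, -1.46 and -0.48. Wif1 gave -0.78, -3.06 and 0.56, so it did not keep its sign. Its CaPS value in experiment 2 lay under the 13.5 tags per 10 M that a count of 0 allows in that library. Without experiment 3, 5 member peaks and 1099 of all peaks passed, and without experiment 1 none. Without experiment 1 Nkd1 had an adjusted p of 0.943 (limma), and with the same sum over peaks 0.124 (limma, log2 change -1.19). Nkd1 and Sfrp1 lie on chromosome 8, where the median RING1B change was -0.88 against -0.66 on the other autosomes, the CBX7 change -1.01 against -0.84, and the H3K27me3 ChIP change -0.43 against -0.01. The part of the chromosome in these 2 genes' values was not tested.

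The time course gave a further ESC pair, experiment 5, that the ESC table does not hold. There 6 of the 12 member peaks had less RING1B in CaPS, and the median over all peaks was 0. Nkd1 gave 132 tags per 10 M in WT and 78.5 in CaPS, and Frzb 334 and 219. Sfrp2 was the other way round, at 62.3 in WT and 103 in CaPS, as were Sfrp5 (66.0 and 97.1) and Notum (56.8 and 80.6). These ESC values of the time course were not tested.

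RING1B CUT&RUN, with 1 column per genotype and so no test, gave lower values in CaPS than in WT at all 10 genes. The ratio of CaPS to WT ran from 0.442 (Dkk2) to 0.765 (Dkk1), with a median of 0.615 against 0.631 over all 10106 peaks. Dkk2 gave 81.7 tags per 10 M in WT and 36.2 in CaPS (ratio 0.442, 95% counting interval 0.306 to 0.628). Sfrp5 (0.451) and Sfrp1 (0.483) were the other genes past 2-fold, as were 27.3% of all peaks, with 0.831% higher by that much. In mCaPS the ratios to WT were lower still, 0.308 (Dkk2) to 0.561 (Dkk3), with 8 of 10 past 2-fold where 51.4% of all peaks were, and 0.584% were higher.

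Set against each other, mCaPS was below CaPS at all 10 genes, with a median ratio of 0.721 against 0.777 over all 10106 peaks. No gene was past 2-fold, where 14.9% of peaks were lower and 4.65% higher by that much. The ratios ran from 0.532 (Nkd1) to 0.917 (Dkk3). The upper bounds of their counting intervals ran from 1 (Notum) to 2.27 (Dkk3), so each gene's interval reached about 1 or more. The direction that the 10 genes share was not tested. With the same sum over peaks no member ratio was past 2-fold in any of the 3 comparisons, and ratios to WT turned above 1 at Dkk1 (1.17), Notum (1.10) and Wif1 (1.02) in CaPS and at Dkk1 (1.09), Dkk3 (1.25), Frzb (1.06), Notum (1.04) and Sfrp2 (1.12) in mCaPS. The all-peak median ratios to WT were then 0.966 in CaPS and 1.1 in mCaPS. On that scale, with an all-peak median of 1.13, the ratio of mCaPS to CaPS turned above 1 at Dkk3 (1.34), Frzb (1.32), Sfrp5 (1.28), Sfrp2 (1.18), Sfrp1 (1.09) and Dkk2 (1.01). It stayed below 1 at Notum, Dkk1, Wif1 and Nkd1. Intervals cover counting error only, since 1 column per genotype shows no spread between libraries. Reads without molecular identifiers are not independent molecules, so the intervals may be too narrow even for that.

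No change of H3K27me3 ChIP in ESC passed at these genes, nor at any of 9195 peaks (0% called lower and 0% higher by limma). At an unadjusted p under 0.05 there were 101 peaks, DESeq2 called 10, and without the WT library of experiment 1 limma called 135, 1 of them a member peak. The 7 genes gave -0.52 (Nkd1) to 0.04 (Notum) on the log2 scale, each with an SE of 0.50 or 0.51. At Sfrp5 WT gave 71.4 and 122 tags per 10 M and CaPS 75.5 and 100.3 in experiments 1 and 5. The experiments went apart: 3 of 8 member peaks were lower in CaPS in experiment 1 and 8 of 8 in experiment 5, where the medians of all peaks were 0.30 and -0.32.

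By H3K27me3 CUT&RUN, Notum stood out among the 9 genes measured, with 54.1 tags per 10 M in WT ESC and 181 in CaPS ESC. The ratio was 3.34 (95% counting interval 2.61 to 4.33), and 99.6% of all 4926 peaks had a ratio as low or lower. The other 8 genes gave ratios of 0.953 (Sfrp2) to 1.29 (Dkk1), and 4.57% of all peaks were higher past 2-fold and 1.08% lower. The 8 other peaks within 1 Mb on either side of the Notum peak gave a median ratio of 1.36, from 0.99 to 1.72. With the same sum over peaks the Notum ratio was 2.66. There was 1 library per genotype, and the ChIP peak of Notum (chr11:120659378-120659877), which lies inside the wider CUT&RUN peak (chr11:120656498-120664319), gave a log2 difference of 0.04 (SE 0.51), with 8.83 and 19.9 tags per 10 M in WT and 11.8 and 16.0 in CaPS. RING1B CUT&RUN at Notum gave 72.0 tags per 10 M in WT and 51.6 in CaPS (ratio 0.716, 95% counting interval 0.512 to 0.968; 1.10 with the same sum over peaks).

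In the WT time course RING1B was lower at day 8 than in ESC at most of these genes. It fell at 7 of the 10, by 2.32-fold (Sfrp2) to 4.67-fold (Frzb). Over all 15091 peaks 20.9% were called lower and 1.73% higher (limma, adjusted p under 0.05). The member median was -1.43 (log2), against -0.79 for the strongest peaks of 7875 genes, of which 30% were lower. Without the WT ESC or the WT day-8 library of experiment 3, Dkk1 (-1.11 and -1.18) and Sfrp2 (-0.70 and -0.82) did not pass.

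Frzb went from 303 and 334 tags per 10 M in WT ESC (experiments 3 and 5) through 127 and 189 at day 6 to 55.0 and 82.2 at day 8. Both day-8 libraries lay far below both ESC libraries, and at 8 of the 10 genes day 8 lay wholly below ESC. The Frzb change was -2.22 (log2, SE 0.35, limma adjusted p = 1.57e-08). Sfrp1 went from 212 and 192 tags per 10 M through 98.6 and 87.2 to 45.3 and 68.5, and changed by -1.84 (log2, SE 0.36, limma adjusted p = 7.07e-06). Sfrp5 changed by -1.97 (log2, SE 0.41, limma adjusted p = 2.84e-05) and Sfrp2 by -1.21 (log2, SE 0.39, limma adjusted p = 0.0106). Wif1 was 26.3 and 78.8 in ESC and 45.3 and 34.7 at day 8, so its groups overlapped, and its change of -0.20 had an adjusted p of 0.765 (limma).

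Of the co-receptor ligands, Dkk2 went from 159 and 152 tags per 10 M in WT ESC to 55.5 and 62.3 at day 6 and 50.8 and 54.0 at day 8. Most of that difference was present by day 6. The day-8 change was -1.55 (log2, SE 0.36, limma adjusted p = 0.000237), and that of Dkk1 -1.32 (log2, SE 0.36, limma adjusted p = 0.00215). Dkk3, the divergent Dickkopf whose role in Wnt signalling is less settled, had little RING1B: 4.84 and 3.67 tags per 10 M in ESC, 0 and 7.26 at day 8. The count of 0 allows up to 2.54 tags per 10 M, and the change of -0.86 (SE 0.93) did not pass. Nkd1 went from 161 and 132 to 25.4 and 50.0 tags per 10 M, a change of -2 (log2, SE 0.39, limma adjusted p = 6.63e-06). Notum gave 68.5 and 56.8 in ESC and 34.7 and 45.2 at day 8, and its change of -0.64 (log2, SE 0.38) did not pass, with a limma adjusted p of 0.234.

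**Figure D2:**
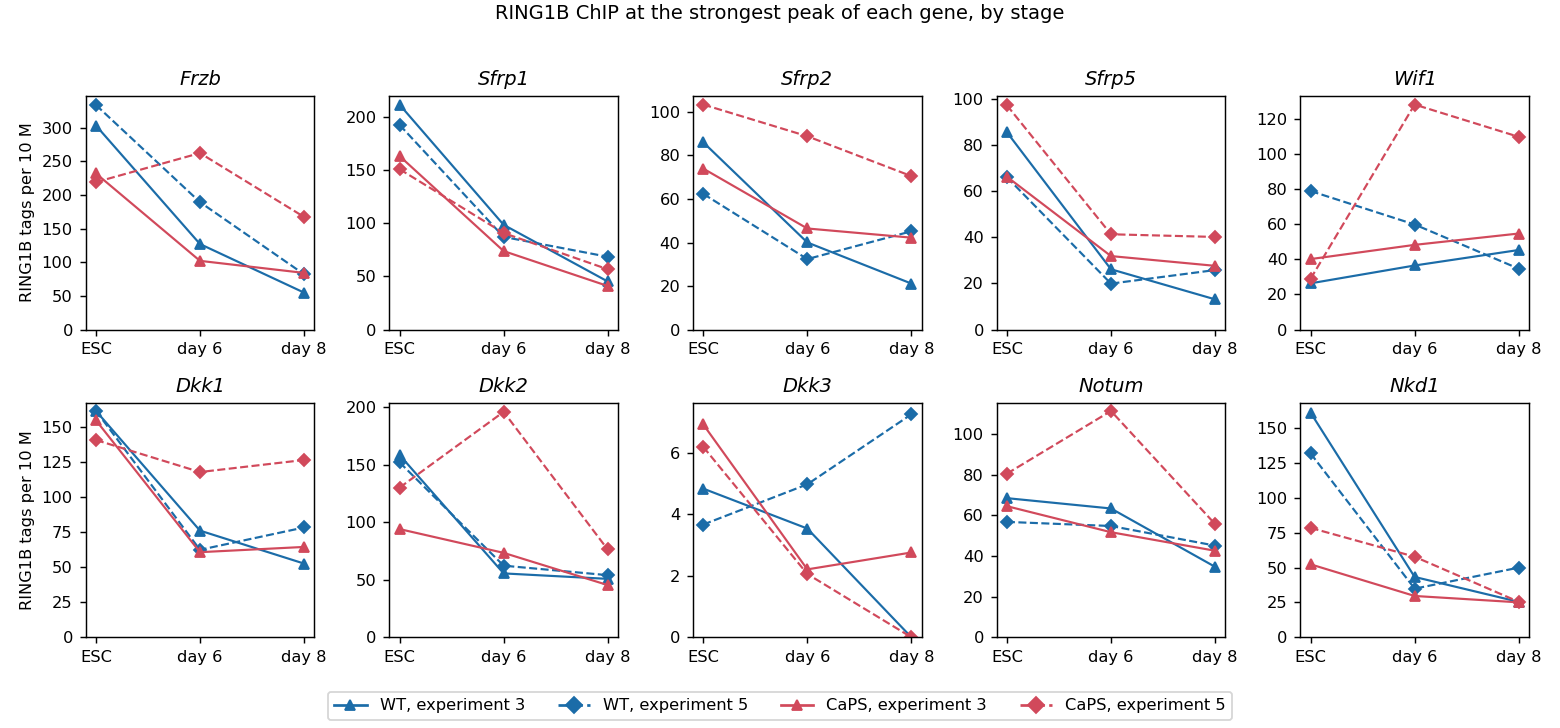
RING1B tags per 10 M (linear axes from 0, 1 scale per gene) at the strongest peak of each gene in ESC, at day 6 and at day 8. Lines join the libraries of 1 genotype and experiment; Frzb falls from 303 and 334 to 55.0 and 82.2 in WT, and Wif1 ends at 54.7 and 109.6 in CaPS.

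In CaPS 3 of the 10 genes fell between ESC and day 8 and 1 rose, where 14.1% of all peaks were lower and 1.63% higher. Sfrp1 went from 163 and 151 tags per 10 M to 41.1 and 56.8, a change of -1.68 (log2, SE 0.36, limma adjusted p = 9.41e-05). Nkd1 changed by -1.31 (log2, SE 0.39, limma adjusted p = 0.00894), from CaPS ESC values of 52.4 and 78.5 that were already below WT. Sfrp5 changed by -1.24 (log2, SE 0.41, limma adjusted p = 0.0218). With 1 of the 12 libraries left out at a time, Sfrp1 passed in each fit. Nkd1 did not pass in 3 of the 12 fits (-1.49 to -1.13 over all of them), nor Sfrp5 in 4 (-1.41 to -1.08). Wif1 rose from 40.1 and 28.9 tags per 10 M in ESC to 54.7 and 109.6 at day 8 (log2 change 1.16, SE 0.39, limma adjusted p = 0.0235). Both its day-8 libraries lay above both ESC libraries, but the groups separated at all 10 genes here, at 9 of them with day 8 below. The Wif1 change did not pass without the CaPS ESC library of experiment 5 (0.51) or the CaPS day-8 library of experiment 3 (1.38) or 5 (0.95). Over such omissions 1 (without that ESC library) to 6 (without the CaPS day-6 library of experiment 3) members passed. Dkk3 gave 6.93 and 6.20 tags per 10 M in CaPS ESC and 2.76 and 0 at day 8, where 0 allows up to 5.87.

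Frzb in CaPS went from 232 and 219 tags per 10 M to 84.3 and 167, and its change of -0.92 (log2, SE 0.35) missed the threshold, with a limma adjusted p of 0.0571. The difference between the CaPS and WT courses was tested itself, and no member passed: Wif1 gave 1.36 (log2, SE 0.55, limma adjusted p = 0.485) and Frzb 1.31 (log2, SE 0.50, limma adjusted p = 0.429). Over all peaks 0.0729% were called lower in this test and 0.199% higher. So a gene that passed in WT and not in CaPS is not shown to differ between them. With the same sum over peaks the all-peak median moved from -0.61 to 0.35 in WT and from -0.48 to 0.13 in CaPS; then Frzb alone passed in WT (-1.09, limma adjusted p = 0.000313), Sfrp1 (-0.98) and Wif1 (1.85) passed in CaPS, and Notum turned above 0 in both, Wif1 in WT and Sfrp2 in CaPS. The comparisons of WT and of CaPS have no library in common but share 1 estimate of the spread.

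At day 6 no member differed between CaPS and WT, where 3.66% of all peaks were called higher and 0.325% lower. Dkk2 came nearest, at 55.5 and 62.3 tags per 10 M in WT and 73.4 and 196 in CaPS (log2 change 1.02, SE 0.36, limma adjusted p = 0.0763). The high value is that of the CaPS day-6 library of experiment 5, which had 12.1% of its tags in peaks against 5.61% to 6.59% in the other day-6 libraries. That library also gave the highest day-6 value of every other member except Sfrp1 and Dkk3. Without it the Dkk2 change was 0.45 (limma adjusted p = 0.921) and 14 of all peaks passed, and without the CaPS day-6 library of experiment 3 it was 1.58 (limma adjusted p = 0.00655). The part of that library's share of tags in peaks was not tested. The difference between the genotypes in the step from ESC to day 6, looked at after the Dkk2 values were seen, gave 1.5 at Dkk2 (log2, SE 0.51, limma adjusted p = 0.148), and no member passed, where 0.351% of peaks were called higher and 0.0199% lower. Without the CaPS day-6 library of experiment 3 Dkk2 passed there too (2.07, limma adjusted p = 0.0123).

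The day-8 RING1B table held 8 of the genes, and no difference between CaPS and WT passed, at these genes or at any of 5393 peaks (0% called lower and 0% higher by limma). At an unadjusted p under 0.05 there were 532 peaks, DESeq2 called 163, and without the WT library of experiment 3 limma called 1906, 2 of them member peaks. The 8 strongest peaks gave -0.97 (Sfrp1) to 0.44 (Frzb), with SEs of 0.75 to 0.88. Frzb gave 33.4 and 39.2 tags per 10 M in WT and 54.5 and 45.2 in CaPS (experiments 3 and 4), and both CaPS libraries were above both WT libraries. Dkk2 gave 60.9 and 122 in WT and 47.2 and 67.7 in CaPS, and its groups overlapped. Over all peaks the difference was 0.15 in experiment 3 and -0.88 in experiment 4. The time course, with its own peaks, held a further day-8 pair, experiment 5. There 3 of the 12 member peaks had less RING1B in CaPS, and the median over all peaks was 0.22. The log2 difference was 1.63 at Wif1 and 1.02 at Frzb, and -0.95 at Nkd1. These day-8 values of the time course were not tested between the genotypes.

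H3K27me3 at day 8 was deposited as 1 column per genotype, from 4.47 M tags in WT and 32.88 M in CaPS. All 13 member peaks were lower in CaPS, with ratios of 0.201 (Sfrp1) to 0.994 (Frzb). Of them 5 were past 2-fold, where 54.5% of all 8657 peaks were (3.05% were higher by that much), and the median was 0.536 against 0.469. Sfrp1 gave 170.1 tags per 10 M in WT and 34.2 in CaPS (95% counting interval of the ratio 0.148 to 0.272). It alone stayed past 2-fold with the same sum over peaks, at 0.401, where the all-peak median was 0.936 and Frzb (1.98), Wif1 (1.69), Sfrp2 (1.25), Sfrp5 (1.16), Dkk2 (1.07) and Notum (1.06) lay above 1. Of all peaks, 14.2% had a ratio as low as that of Sfrp1 or lower. Notum carried the most H3K27me3, with 778 tags per 10 M in WT and 411 in CaPS (ratio 0.529, 95% counting interval 0.469 to 0.596).

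In day-10 EB, RING1B CUT&RUN at 9 genes gave ratios of CaPS to WT from 0.667 (Sfrp1) to 1.35 (Dkk2) at the strongest peaks, and each 95% counting interval spanned 1. The second Sfrp1 peak went the other way, at 8.13 tags per 10 M in WT and 11.4 in CaPS (ratio 1.40, 95% counting interval 0.578 to 3.52). At Dkk1 the strongest peak gave 1.33 and the second 0.801. Sfrp2 gave 48.8 tags per 10 M in WT and 50.0 in CaPS, and Notum 44.3 and 47.2. The weak second Notum peak, at 9.35 and 2.85 tags per 10 M, was the 1 member peak of 12 past 2-fold (ratio 0.305, 95% counting interval 0.0784 to 1.10), where 8.84% of all 6547 peaks were lower by that much and 16.5% higher.

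**Figure D3:**
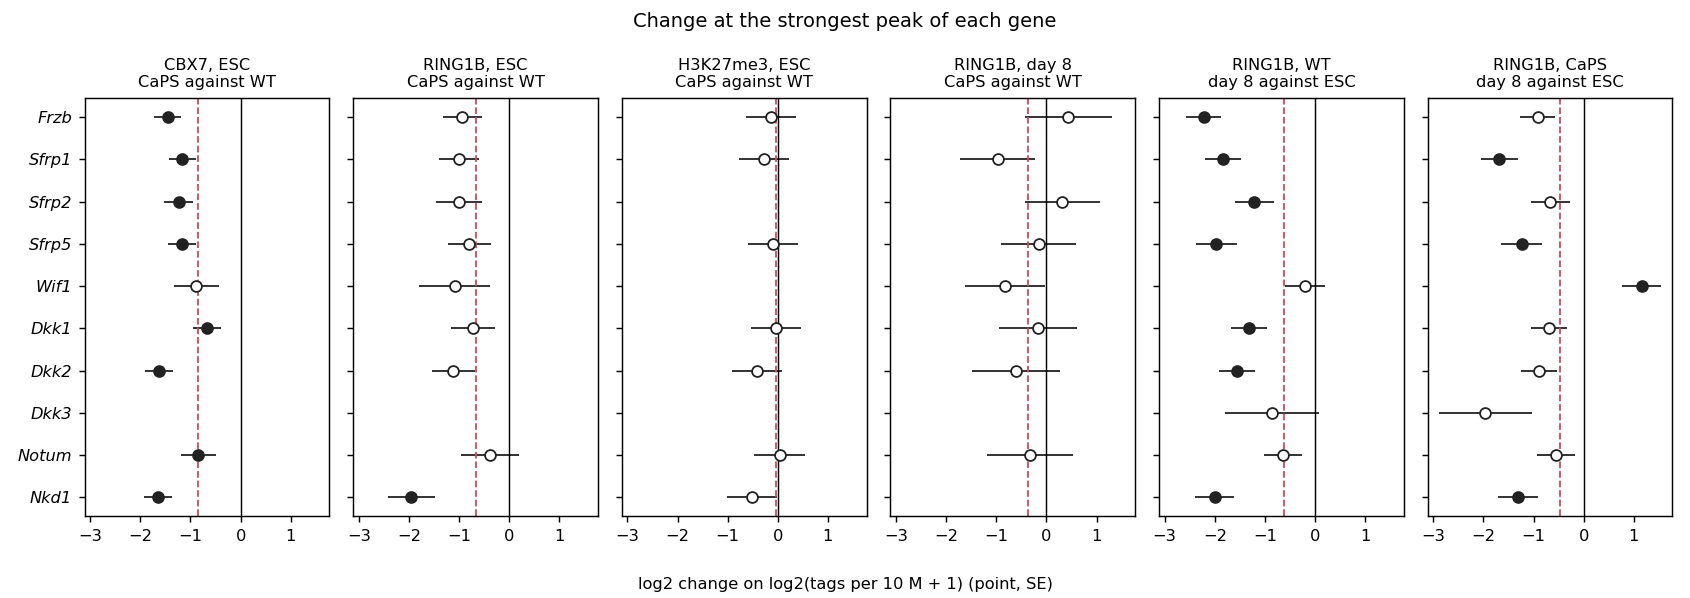
Log2 change (point) with its SE (bar) at the strongest peak of each gene in 6 comparisons, on log2(tags per 10 M + 1). Filled points passed at an adjusted p under 0.05 and the dashed line is the median of all peaks; in CBX7 8 of 9 points are filled, from -1.64 to -0.67.

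**Figure D4:**
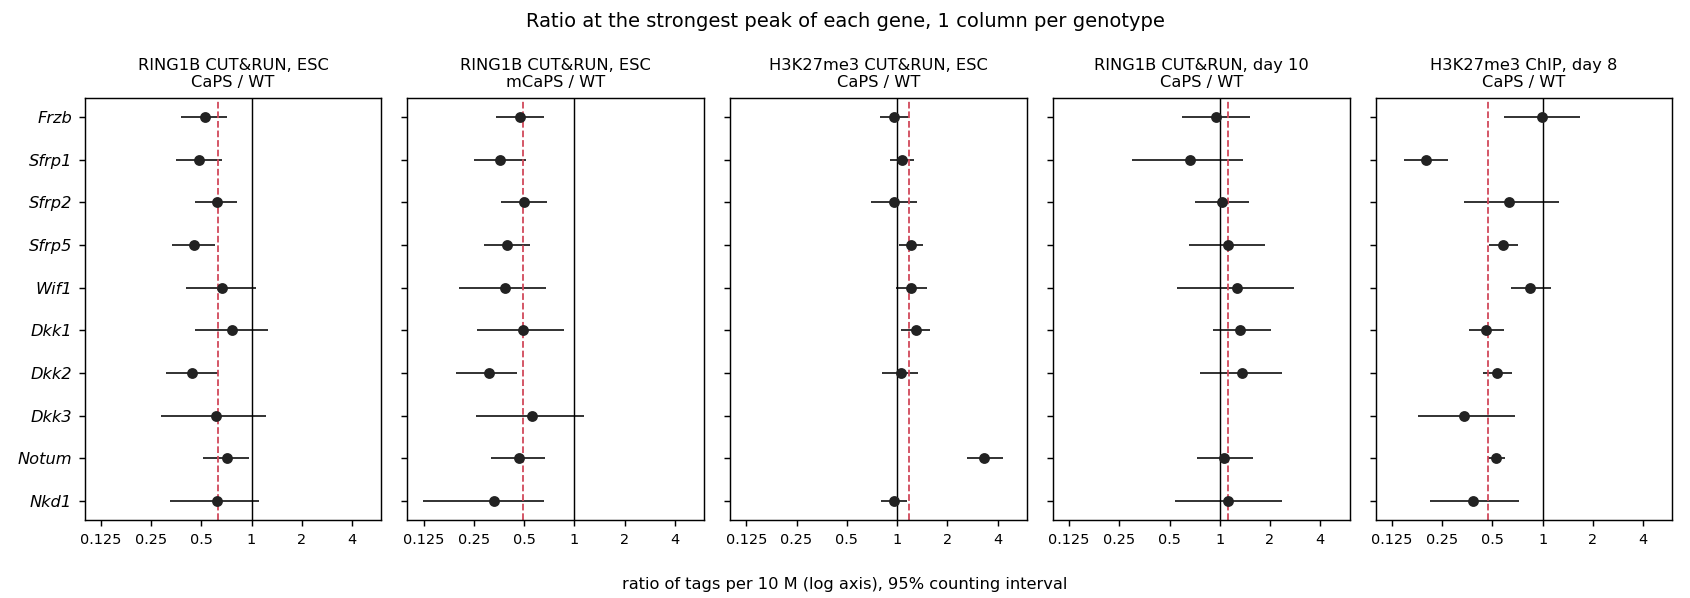
Ratio of tags per 10 M (log axis) at the strongest peak of each gene where each genotype had 1 column, with its 95% counting interval; the dashed line is the median of all peaks. Notum at 3.34 in H3K27me3 CUT&RUN and Sfrp1 at 0.201 in day-8 H3K27me3 lie farthest from 1.

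The rest of the pathway was read in the same way, from lists of other antagonists, ligands, receptors and effectors. In CBX7, 20 of 21 Wnt and R-spondin ligands with a peak were lower in CaPS ESC, as were 10 of 13 receptors, 7 of 13 other antagonists and 2 of 6 effectors, and none was higher, where 48% of all 5384 genes were lower and 0.0557% higher. Wnt5a, a ligand of beta-catenin-independent signalling, changed by -1.32 (log2, SE 0.32, limma adjusted p = 0.000197), and Fzd1, a Wnt receptor, by -1.36 (log2, SE 0.27, limma adjusted p = 9.13e-06). In the WT time course RING1B fell by day 8 at 20 of 21 ligands, 8 of 13 receptors, 5 of 12 other antagonists and 1 of 7 effectors, where 30% of all 7875 genes were lower. Wnt10a changed there by -2.67 (log2, SE 0.40, limma adjusted p = 1.34e-09), and Lef1, the transcription factor partner of beta-catenin, by -0.88 (log2, SE 0.43), which did not pass (limma adjusted p = 0.126). In CaPS 16 of 21 ligands fell and 1 rose, 5 of 13 receptors fell and 1 rose, and 2 of 12 other antagonists and 0 of 7 effectors fell, where 19.5% of all genes were lower and 1.96% higher. The lists hold different numbers of genes, and no test between them was made.

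The genes whose RING1B course was most like that of Frzb, the member with the highest mean, were Sost (r = 0.992), Cxcr4 (r = 0.99) and Hs6st3 (r = 0.983), by Pearson correlation of log2 values over the 12 libraries and 7873 genes. Among the members Dkk2 was nearest, at 0.862, and Wif1 farthest, at 0.187. The 12 points share stage and library depth, so these values only describe.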

How the data were processed

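The 9 peak tables used hold ChIP and CUT&RUN of CBX7, RING1B and H3K27me3. The authors deposited values that are normalised signal: tags in each peak scaled to 10 M tags per library, per the file headers, on the mm10 build, with HOMER (4.10.4), cutadapt (1.14), Bowtie2 (2.3.4.3) and SAMtools (1.9) named in the submitters' processing notes. ChIP had a Drosophila spike-in, per the labels' protocols; the labels and headers used here do not say how it entered the deposited signal. Whole read ends (0.5 tag each) were recovered from the header totals for 100% of values (largest deviation 0.049 read ends). The design assumed either counts or normalised signal; since the values are signal, limma (3.58.1, R 4.3.3) on log2(value + 1) with a mean-variance trend and the experiment as a block was used, fitted over all peaks of a table with Benjamini-Hochberg adjustment and a threshold of 0.05. Fold changes are on that log2 scale, which understates low peaks. Its prior degrees of freedom were infinite, so a p-value reflects the spread usual for peaks of that strength; the labels do not say that experiments were separate cultures, so it covers the spread between these libraries only. The block follows the series' statement that comparisons were made within experiments. Deviations of same-numbered libraries correlated by 0.04 to 0.30 (CBX7), -0.02 to 0.23 (ESC RING1B), 0.09 (H3K27me3), 0.25 (day 8) and 0.06 to 0.22 (time course). Columns without replicates gave ratios with exact (Clopper-Pearson) 95% counting intervals, and a ratio past 2-fold counted as called. Alternatives used edgeR (4.0.16) and DESeq2 (1.42.0) on read ends; the fitting function was tested on simulated data. All members were named, with at most 3 genes per other list, those of highest mean. Members and lists were chosen with earlier results of these data known. Not used here were knockout libraries and a table with 2 columns that match no sample. Day-8 H3K27me3 columns are pooled values, per the file headers. Figures used Python and matplotlib.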

Additional observations from a re-analysis of the deposited data

How the results depend on the processing

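Values here are peaks called or, for CUT&RUN and pooled columns, past 2-fold, and log2 changes of genes that turned sign; the cause was not tested. Each paragraph names the setting that differs.

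The fit left out the replicate block, so libraries were not paired by experiment. ESC CBX7 gave 0 member peaks and 2 peaks in all, and ESC RING1B gave 0 member peaks and 0 peaks in all. Day-8 RING1B gave 37 peaks in all, and the CaPS course gave 1 member peak and 1322 peaks in all. Day-6 RING1B gave 165 peaks in all, and the day-8 difference of courses gave 1 peak in all. The day-6 difference of courses gave 2 peaks in all.

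Every library was scaled to the same sum over peaks. ESC CBX7 had 0 member peaks, 193 peaks in all, Dkk1 at 0.37 and Notum at 0.17, and ESC RING1B had 0 member peaks, Dkk1 at 0.04 and Notum at 0.37. ESC H3K27me3 had 49 peaks in all and Dkk1 at 0.04, and day-8 RING1B had 440 peaks in all and Sfrp5 at 0.01. The WT course had 1 member peak, 2224 peaks in all, Notum at 0.48 and Wif1 at 0.92, and the CaPS course had 2 member peaks, 1581 peaks in all, Notum at 0.14 and Sfrp2 at 0.03. Day-6 RING1B had Frzb at -0.32, Dkk1 at -0.10, Notum at -0.04 and Nkd1 at -0.30, and the day-8 difference of courses had 117 peaks in all, Sfrp1 at -0.28 and Notum at -0.34. The day-6 difference of courses had Sfrp1 at -0.33, Dkk1 at -0.09 and Notum at -0.35, and CaPS RING1B CUT&RUN had 0 member peaks. The mCaPS RING1B CUT&RUN ratios had 0 member peaks, Frzb at 1.06, Notum at 1.04 and Dkk1 at 1.09, and day-8 H3K27me3 had 1 member peak.

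Read ends were fitted by edgeR with TMM and the experiment block. ESC CBX7 showed 3 member peaks, 447 peaks in all, Dkk1 at 0.19, Notum at 0.06 and Wif1 at 0.06, and ESC RING1B showed 0 member peaks, 0 peaks in all and Notum at 0.19. ESC H3K27me3 showed 57 peaks in all, and day-8 RING1B showed 381 peaks in all, Notum at 0.05, Dkk1 at 0.20 and Sfrp5 at 0.20. The WT course showed Notum at 0.01, Wif1 at 0.66 and Dkk3 at 0.10, and the CaPS course showed 2 member peaks and Notum at 0.01. Day-6 RING1B showed 127 peaks in all, Frzb at -0.29, Dkk1 at -0.20, Notum at -0.11 and Nkd1 at -0.44, and the day-8 difference of courses showed 82 peaks in all and Sfrp1 at -0.03. The day-6 difference of courses showed 19 peaks in all, Sfrp1 at -0.11 and Notum at -0.14.

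Read ends were fitted by DESeq2 with the experiment block. ESC CBX7 gave 2 member peaks, 306 peaks in all and Dkk1 at 0.21, and ESC RING1B gave 14 peaks in all. ESC H3K27me3 gave 10 peaks in all, and day-8 RING1B gave 163 peaks in all and Notum at 0.10. The WT course gave 3 member peaks, 1998 peaks in all, Notum at 0.29, Wif1 at 0.90 and Dkk3 at 0.46, and the CaPS course gave 2 member peaks, 1390 peaks in all, Dkk1 at 0.02, Notum at 0.20 and Sfrp2 at 0.07. Day-6 RING1B gave 150 peaks in all, Frzb at -0.37, Dkk1 at -0.26, Notum at -0.17 and Nkd1 at -0.47, and the day-8 difference of courses gave 98 peaks in all, Sfrp1 at -0.11 and Notum at -0.08. The day-6 difference of courses gave 31 peaks in all, Sfrp1 at -0.16, Dkk1 at -0.03 and Notum at -0.19.

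The mean-variance trend was left out of limma, which for member counts was added after the data were seen. ESC CBX7 had 0 member peaks and 0 peaks in all, and ESC RING1B had 0 member peaks and 0 peaks in all. Day-8 RING1B had 68 peaks in all, and the WT course had 4 member peaks and 1592 peaks in all. The CaPS course had 0 member peaks and 197 peaks in all, and day-6 RING1B had 0 peaks in all. The day-8 difference of courses had 0 peaks in all, and the day-6 difference of courses had 0 peaks in all.

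Read ends were fitted by edgeR with the header totals and the block, also added afterwards, as was the day-6 difference of courses throughout. ESC RING1B showed 5 peaks in all, and day-6 RING1B showed 137 peaks in all and Nkd1 at -0.05. The day-6 difference of courses showed 5 peaks in all. Peaks with a mean of at least 10 were kept. ESC RING1B showed 40 peaks in all, and the day-6 difference of courses showed 37 peaks in all. EB RING1B showed 0 member peaks. The pseudocount was 5. Day-6 RING1B showed 1017 peaks in all, and EB RING1B showed 0 member peaks.

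With 2 experiments, leaving out 1 library left no pair, so these fits had no replicate block, and the lone library was taken to vary like the others. Without WT experiment 1, ESC H3K27me3 gave 1 member peak, 135 peaks in all and Notum at -0.50. Leaving out WT experiment 5, ESC H3K27me3 gave 7 peaks in all, Sfrp5 at 0.28, Dkk2 at 0.09, Frzb at 0.30, Dkk1 at 0.55 and Sfrp1 at 0.08. Without CaPS experiment 1, ESC H3K27me3 gave Sfrp5 at 0.10, Frzb at 0.06 and Dkk1 at 0.09. Leaving out CaPS experiment 5, ESC H3K27me3 gave Notum at -0.16. Without WT experiment 4, day-8 RING1B gave 1 peak in all, Notum at 0.63, Dkk1 at 0.35 and Sfrp5 at 1.37. Leaving out CaPS experiment 4, day-8 RING1B gave 1 peak in all. Without WT experiment 3, day-8 RING1B gave 2 member peaks and 1906 peaks in all. Leaving out CaPS experiment 3, day-8 RING1B gave 87 peaks in all, Dkk1 at 0.04 and Sfrp5 at 0.01.

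Leaving out 1 library, or 1 experiment in the ESC ChIP tables, gave these lowest and highest values. ESC CBX7 ran from 5 to 8 (member peaks) and 1177 to 2761 (all peaks). ESC RING1B ran from 0 to 5 (member peaks) and 0 to 1099 (all peaks). The WT course ran from 2118 to 3680 (all peaks), -0.81 to 0.40 (Wif1) and -2.59 to 0.87 (Dkk3). The CaPS course ran from 935 to 2728 (all peaks) and 1 to 6 (member peaks). Day-6 RING1B ran from 14 to 1760 (all peaks), -0.37 to 0.02 (Sfrp1), -0.08 to 0.67 (Dkk1), -0.28 to 0.47 (Nkd1), 0 to 1 (member peaks), -0.38 to 0.54 (Frzb) and -0.13 to 0.85 (Notum). The day-8 difference of courses ran from -0.10 to 0.42 (Sfrp1), -0.24 to 0.42 (Notum), 1 to 91 (all peaks) and -2.83 to 0.63 (Dkk3). The day-6 difference of courses ran from -0.33 to 0.64 (Notum), 0 to 604 (all peaks), -0.01 to 0.38 (Sfrp1) and 0 to 1 (member peaks). Of 159 values of the 20 called gene results under other settings, 90 kept direction and call, 64 kept direction only and 5 turned sign. With a library or pair left out, 139 of 159 kept both and 20 kept direction only.

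Depth limits the weakest members: Dkk3 in the time course lay at or under the level that a count of 0 allows in several libraries, and the experiment 5 ESC and day-6 libraries held 2.01 to 2.73 M tags.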
